A study of Solanum lycopersicum with 2 samples.

Results

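γ-Aminobutyric acid (GABA) is a non-protein amino acid that tomato fruit stores in large amounts while green and uses up as it ripens. Glutamate decarboxylase (GAD) forms GABA from glutamate in the cytosol. GABA transaminase (GABA-TP) then removes the amino group to give succinic semialdehyde, and succinic semialdehyde dehydrogenase (SSADH) oxidises this to succinate, which enters the citric acid cycle. GABA also acts on aluminum-activated malate transporters (ALMT), the family of anion channels to which ALMT9 belongs, and work on wheat ALMT1 has shown that it can inhibit them. The 6 loci described here cover these steps. They were taken by locus number for their place in the pathway, with earlier results of these data known, and all 6 were found among the 34725 gene identifiers of the table. They are GAD1 (Solyc03g098240), GAD2 (Solyc11g011920), GAD3 (Solyc01g005000), GABA-TP1 (Solyc07g043310), GABA-TP3 (Solyc12g006450) and SSADH (Solyc09g090700). The identifiers are not paired with names in the table itself. A RefSeq gene table lists a gene under each of the 6 names, GAD1 as a synonym only, on the chromosome whose number stands in the locus number.

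RNA sequencing compared fruit RNA of wild type tomato with that of an ALMT9 over-expression line, called OX1 in the extraction notes. Both genotypes were sampled at the red ripening stage, 49 days after flowering, from 3 plants each, and 1 library stands for each genotype. The stated aim was to find genes whose regulation is tied to ALMT9 during ripening. The promoter of the transgene, the number of independent lines, the cultivar and any pooling of the plants are details not given here. There is thus no replicate and no test, and every difference below is one between 2 libraries, with intervals that cover counting error only.

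Levels are in RPKM, reads scaled by gene model length and by library size, to allow comparison between genes. Errors of gene models or read placement can differ between genes, are not covered by the counting intervals and were not tested. The values held traces of whole reads, from which library totals were recovered, 19736832 reads (wild type) and 19252026 reads (overexpression line). The locus entered for ALMT9, Solyc06g072910, was at 0.0742 RPKM in wild type fruit and 20.5 RPKM in overexpression fruit, in the direction of the label. The next numbered locus, Solyc06g072920, was at 0.175 and 39.0 RPKM. All 6 loci entered as markers of ripe fruit were abundant, between 290.0 and 3979 RPKM in wild type fruit and 331 to 2011 RPKM in overexpression fruit. Their sum was 9094 and 6833 RPKM, with 3 loci higher and 3 lower in overexpression fruit and 0 of them by 2-fold. The most abundant was 1.98-fold lower there, at 3979 and 2011 RPKM, and the part of these differences in the results on the GABA genes was not tested. The 7 loci entered for green tissue summed to 17.0 and 22.5 RPKM, with 1 and 2 of them listed at 0. Both loci entered for seed storage globulins were far lower in overexpression fruit. Their summed level was 91.7 RPKM in wild type fruit and 0.642 RPKM in overexpression fruit, so these seed markers moved with the genotype. Their part in the results on the GABA genes was not tested. In bulk fruit RNA, fewer cells of a type and less RNA per cell cannot be told apart.

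The GABA genes as a group kept similar levels in both libraries for GAD3, GABA-TP1 and SSADH, while GAD2 was several-fold higher and GAD1 and GABA-TP3 were lower in overexpression fruit. Differences were expressed as log2((overexpression + 1)/(wild type + 1)), and a gene was counted as apart where this reached 2-fold. The background was the 17287 genes whose mean over both libraries reached 1 RPKM. Of these, 12.4% differed by 2-fold or more, 8.09% being higher and 4.3% lower in overexpression fruit. All 6 GABA genes passed this filter, each with at least 5.20 RPKM in both libraries. Among them 1, GAD2, was at least 2-fold higher and 0 were at least 2-fold lower. At 1.5-fold, 3 of the 6 were apart (GAD1, GAD2 and GABA-TP3), against 28.8% of all genes. The median log2 ratio of the 6 was -0.14, beside 0.016 over all genes tested, with 2 members above 0 and 4 below. With 6 members these counts set nothing about the group apart from other genes, and the single loci carry the description.

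**Figure D1:**
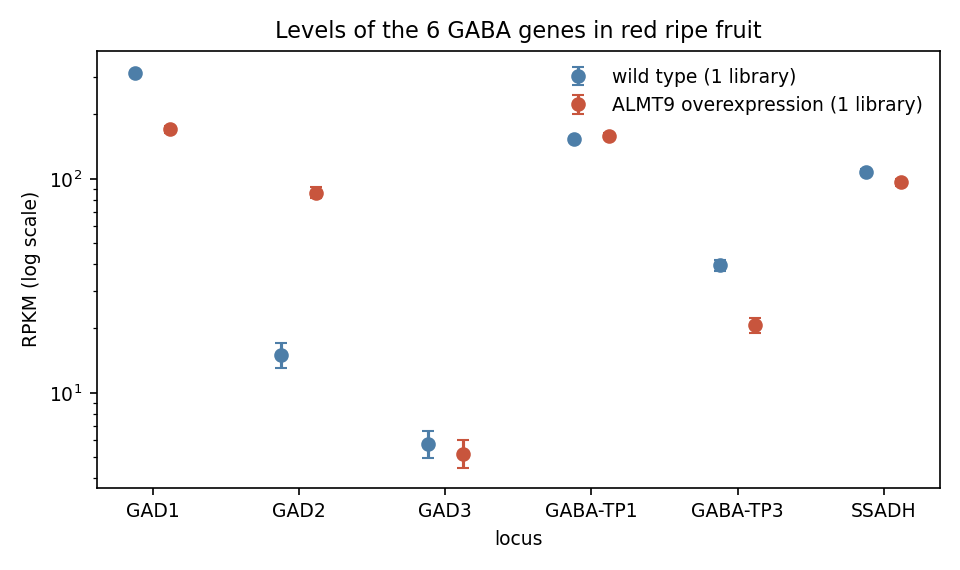
Level of each GABA gene in RPKM on a log axis, in the library of the wild type (blue) and the ALMT9 overexpression library (red). Points are the deposited values and bars are exact 95% Poisson intervals from the recovered reads; GAD2 stands at 15.0 against 86.2 RPKM, whereas the points of GAD3 and GABA-TP1 lie close together.

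GAD1 was the most abundant of the 6 genes in both libraries. It encodes one of the decarboxylases that commit glutamate to GABA. Its level was 312 RPKM in wild type fruit, with a counting interval of 304 to 320 RPKM from at least 5477 reads. In the overexpression library it was 170.3 RPKM, with an interval of 164 to 177 RPKM from at least 2918 reads. The intervals did not overlap, and the level was 1.83-fold lower in overexpression fruit, with an exact 95% interval of 1.75 to 1.92. The log2 ratio of -0.87 lay below that of most genes: 5.85% of genes tested had a lower one.

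GAD2 showed the opposite and much larger difference. In tomato, suppressing this gene or GAD3 is known to reduce GABA in the fruit. GAD2 was at 15.0 RPKM in wild type fruit, with an interval of 13.1 to 17.1 RPKM from at least 224 reads. In the overexpression library it was at 86.2 RPKM, with an interval of 81.5 to 91.1 RPKM from at least 1255 reads. The wild type value was thus the low one, and the counting intervals were far apart. The RPKM ratio was 5.74, with an exact interval of 4.98 to 6.65. Its log2 ratio of 2.45 ranked 176 from the top of the 17287 genes, and 1.3% of genes lay at least as far from 0 in either direction. It also passed a 4-fold threshold, as 435 genes in all did.

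GAD3 was the least abundant of the 6 in both libraries. It was at 5.75 RPKM in wild type fruit and 5.20 RPKM in overexpression fruit. The ratio of 0.904 had a counting interval of 0.732 to 1.12 from at least 195 and 172 reads, so a difference was not detectable at this depth. The interval leaves room for a level up to 1.37-fold lower or 1.12-fold higher in overexpression fruit.

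The make-up of the GAD messages therefore differed between the libraries more than their sum did. The 3 GAD loci summed to 333 RPKM in wild type fruit and 262 RPKM in overexpression fruit, a 1.27-fold lower sum. GAD1 gave 93.8% of the wild type sum and 65.1% of the overexpression sum. GAD2 gave 4.51% of the sum in wild type fruit and 32.9% in overexpression fruit. With each locus taken to its counting bounds and the others held, the share of GAD2 ran from 3.97% to 5.11% and from 31.7% to 34.2%. GAD3 stayed a minor part, at 1.73% and 1.99%. In RPKM, GAD2 was 71.2 higher and GAD1 was 141 lower in overexpression fruit.

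**Figure D2:**
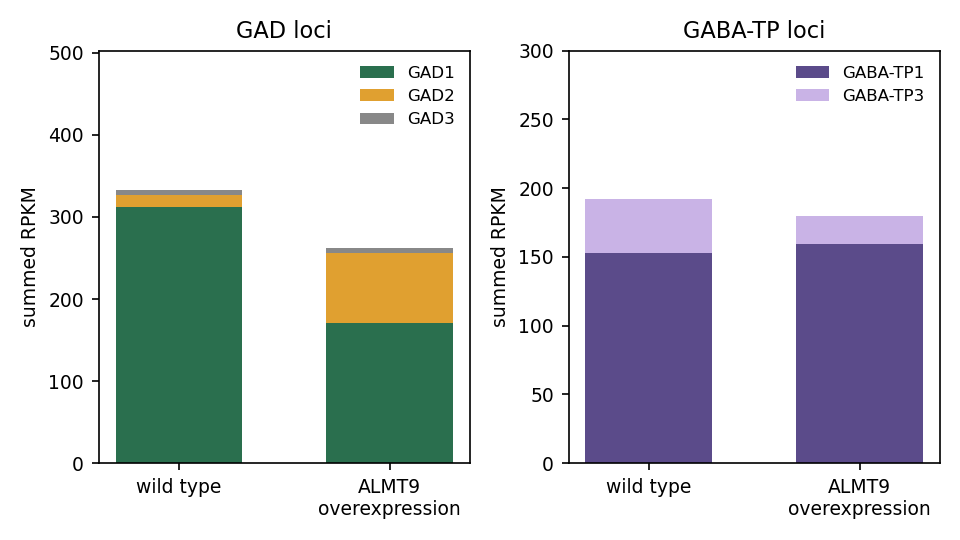
Summed RPKM of the GAD loci (left) and of the GABA-TP loci (right) in the libraries of both genotypes, with each locus as a part of the bar. GAD1 fills 93.8% of the wild type GAD bar and 65.1% of the overexpression bar, and GABA-TP1 fills 79.5% and 88.5% of the GABA-TP bars.

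A comparison of 2 genes within the same libraries does not depend on how the libraries were scaled to each other. GAD1 was 20.8 times as abundant as GAD2 in wild type fruit and 1.97 times in overexpression fruit. The ratio of GAD2 was 10.5 times the ratio of GAD1, with an exact interval of 9.05 to 12.3 for counting error. GAD2 also moved away from GAD3, from 2.61 times to 16.6 times its level, a factor of 6.35 with an interval of 4.91 to 8.21.

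Of the transaminase loci, GABA-TP1 was the more abundant. It encodes the mitochondrial enzyme of tomato, whose suppression is known to leave GABA in ripe fruit. It was at 153 RPKM in wild type fruit, with an interval of 149 to 157 RPKM. In the overexpression library it was at 159 RPKM, with an interval of 155 to 164 RPKM. These intervals overlapped. The ratio of 1.04 had an exact interval of 1.01 to 1.08, and with both libraries scaled to equal RPKM sums the log2 ratio went from 0.06 to -0.029, so no direction is given for this gene.

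GABA-TP3, which encodes a plastid form of the enzyme, was lower in overexpression fruit. It was at 39.5 RPKM in wild type fruit, with an interval of 37.3 to 41.8 RPKM from at least 1208 reads. In the overexpression library it was at 20.7 RPKM, with an interval of 19.1 to 22.4 RPKM from at least 618 reads. The level was 1.91-fold lower, with an exact interval of 1.73 to 2.10, and the log2 ratio of -0.90 did not reach the 2-fold threshold. That log2 ratio was higher than that of 5.43% of genes.

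The sum of both transaminase loci differed little, at 192 RPKM in wild type fruit and 180.0 RPKM in overexpression fruit. GABA-TP3 gave 20.5% of that sum in wild type fruit and 11.5% in overexpression fruit. GABA-TP1 was 3.87 times as abundant as GABA-TP3 in wild type fruit and 7.7 times in overexpression fruit. The ratio of GABA-TP1 was 1.99 times that of GABA-TP3, with an exact interval of 1.79 to 2.21. In both enzyme families the share of the loci thus differed between the libraries, in favour of GAD2 among the decarboxylases and of GABA-TP1 among the transaminases.

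SSADH, the enzyme that closes the pathway, was at 108 RPKM in wild type fruit, with an interval of 104 to 112 RPKM. It was at 96.5 RPKM in overexpression fruit, with an interval of 93.0 to 100.1 RPKM. The intervals did not overlap, although the level was only 1.12-fold lower, with an exact interval of 1.06 to 1.18. Differences of this size were common, as 75.1% of all genes tested lay at least as far from 0 on the log2 scale.

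Ordered by level, the wild type library ran GAD1, GABA-TP1, SSADH, GABA-TP3, GAD2, GAD3. The overexpression library ran GAD1, GABA-TP1, SSADH, GAD2, GABA-TP3, GAD3. The single change of order was between GAD2 and GABA-TP3. GABA-TP3 stood at 2.63 times the level of GAD2 in wild type fruit and at 0.24 times in overexpression fruit. Within each library no counting interval overlapped that of the next gene in the order, for counting error alone. GAD1 and GABA-TP1 came closest in overexpression fruit, at 1.07 times, where the wild type had 2.04 times. The summed GAD level was 1.73 times the summed GABA-TP level in wild type fruit and 1.45 times in overexpression fruit. By rank among all 34725 identifiers, GAD1 was at percentile 99.0 in wild type fruit and 97.6 in overexpression fruit, and GAD2 was at 76.5 and 94.9.

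**Figure D3:**
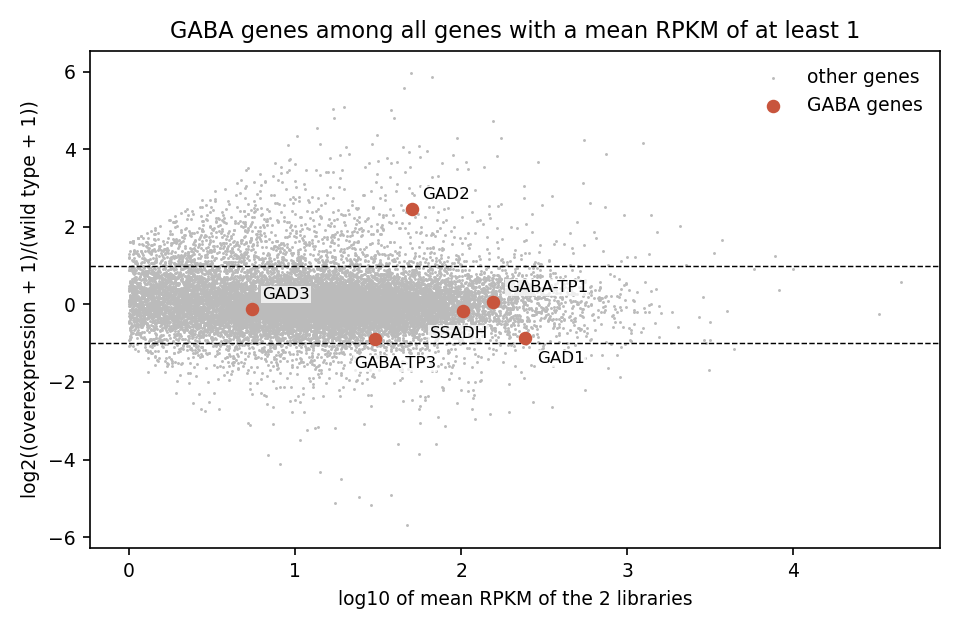
Log2 ratio of overexpression to wild type with a pseudocount of 1 against the log10 of mean RPKM, for genes whose mean reached 1 RPKM (grey) and the 6 GABA genes (red). Dashed lines mark 2-fold; GAD2 lies at 2.45 above the upper line, and GAD1 at -0.87 and GABA-TP3 at -0.90 lie just inside the lower one.

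Positions of the loci were compared through their numbers, since no coordinates of the build used are given here. The 6 genes lie on 6 different chromosomes, 1, 3, 7, 9, 11 and 12. The numbered neighbours, 5 on each side where they exist, came to 55 loci. GAD3 had neighbours on 1 side only because it is the first numbered locus of chromosome 1. The mean reached 1 RPKM in 32 of these neighbours, of which 5 were at least 2-fold higher and 1 was at least 2-fold lower. Over all genes tested, 8.09% were higher and 4.3% were lower by this threshold. Whether the neighbours differ from other genes was not tested.

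By the log2 ratio with a pseudocount of 1, GAD2 was above each of its 6 neighbours that passed this filter. Their log2 ratios ran from 0.010 to 1.69 with a median of 0.21, and 2 of them were at least 2-fold higher. These were Solyc11g011880, at 0.447 and 3.15 RPKM, and Solyc11g011940, at 0.353 and 3.35 RPKM, both far below the level of GAD2. They passed the filter only through the overexpression library and were singled out after their values were seen. Without the pseudocount, both had a larger RPKM ratio than the 5.74 of GAD2. Its place above them thus depends on the pseudocount. GAD1, at -0.87, was below the 7 of its 10 neighbours that passed, which ran from -0.74 to 0.91. The lowest of these was at 1.70 RPKM in wild type fruit and 0.614 RPKM in overexpression fruit. That neighbour passed the filter only through the wild type library and was singled out after its values were seen. Without the pseudocount, it was lower in overexpression fruit by more than the 1.83-fold of GAD1. GABA-TP3, at -0.90, was below the 4 of its 10 neighbours that passed, which ran from -0.72 to 1.16. GAD3, at -0.12, was above its 2 neighbours that passed, at -1.23 and -0.53. GABA-TP1 and SSADH lay inside the range of their neighbours.

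**Figure D4:**
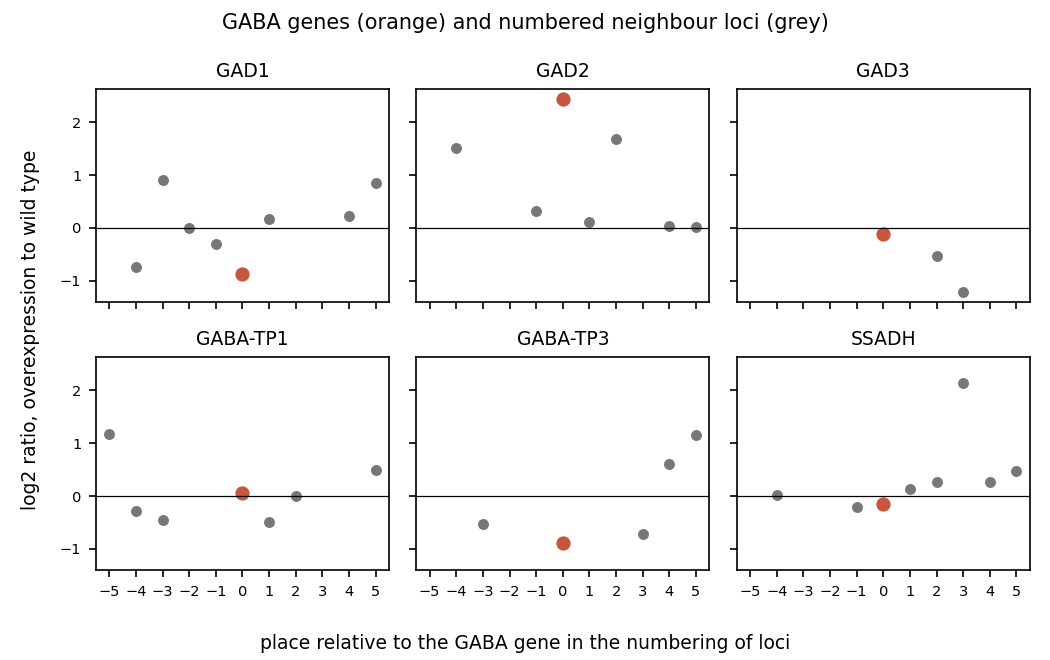
Log2 ratio of overexpression to wild type for each GABA gene (orange) and for up to 5 numbered loci on each side (grey) whose mean reached 1 RPKM, plotted by place in the locus numbering. With a pseudocount of 1, GAD2 stands above its 6 neighbours, of which 2 reach 2-fold. GAD3 stands above its 2 neighbours, and GAD1 and GABA-TP3 stand below theirs. Without the pseudocount, the 2 neighbours of GAD2 that reach 2-fold have larger RPKM ratios than GAD2. The lowest neighbour of GAD1 then lies below GAD1.

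Further loci of GABA metabolism were entered from published tomato locus assignments as a list of 4, for 2 other decarboxylases, another transaminase and a vacuolar GABA transporter. Their roles, other than that of the transaminase, were not checked against a table. The mean reached 1 RPKM in 2 of the 4, with 1 at least 2-fold higher and 0 at least 2-fold lower. The shares over all genes tested were 8.09% and 4.3%, and 2 loci are too few to set the list apart. The transporter locus was the abundant one, at 81.1 RPKM in wild type fruit and 60.5 RPKM in overexpression fruit, a level 1.34-fold lower with an interval of 1.27 to 1.41. A further decarboxylase locus was at 0.198 RPKM from at least 7 reads in wild type fruit and at 4.50 RPKM from at least 155 reads in overexpression fruit. Its RPKM ratio was 22.7, with an interval of 10.8 to 57.4, and it passed the filter only through the overexpression library. Its counting interval there, 3.82 to 5.27 RPKM, overlapped that of GAD3, 4.455 to 6.04 RPKM. The other decarboxylase locus was listed at 0 in wild type fruit and at 0.0625 RPKM, from as little as 1 read, in overexpression fruit.

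The further transaminase locus, Solyc12g006470, is entered for GABA-TP2. In RefSeq that gene lies on chromosome 12 with 1 gene between it and GABA-TP3. It also carries the synonym GAME12, a name from the pathway of the steroidal glycoalkaloids. It was at 0.110 RPKM in wild type fruit and 0.679 RPKM in overexpression fruit, from as few as 1 and 6 reads. The ratio of 6.15 had a counting interval of 0.746 to 283, so no difference was detectable at this depth. Both values were small beside those of GABA-TP1 and GABA-TP3. Whether reads of near-identical copies were shared among the GAD or GABA-TP loci was not tested.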

How the data were processed

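The deposited table gives RPKM, computed by the authors, for each gene in 1 wild type and 1 ALMT9 overexpression library. The submitters' processing notes name TopHat. Not given in the sources used here are its version, the counting tool, the build and annotation, and how strand and multiply placed reads were handled. Columns were matched to samples by the endings of the titles, and groups by the genotype label.

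Ratios of low values gave the ratio of library totals. The totals are the largest at which the share of whole trial lengths came to at least 85.0% of its highest value. It was 82.7% of 3427 genes against 42.8% at 2 times and 57.4% at 3 times. For each locus the shortest length of at least 60 bp giving whole reads in both libraries was taken, so read numbers are the least the values allow. Too few reads make intervals too wide. Ratio intervals are Clopper-Pearson, level intervals Poisson and those between 2 genes conditional odds ratios, all exact at 95.0%. PCR copies are not independent molecules. The recovery was tested on simulated data.

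The pseudocount was 1, the filter a mean RPKM of at least 1, and the threshold 2-fold. Members and lists were chosen with earlier results of these data known. Genes set to be named were the members, ALMT9 and its neighbour, and listed loci that RefSeq annotates, here GABA-TP2. Solyc11g011880 and Solyc11g011940, neighbours of GAD2, were named after their values were seen. None of the file's identifiers matched the 41476 RefSeq genes (assembly SLM_r2.1) by locus tag, so names were matched by symbol, or for GAD1 by synonym. Alternatives covered pseudocount, filter, threshold and 5 scalings. Python 3.11.15, numpy 2.4.6, scipy 1.17.1 and pandas 2.3.3 were used.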

Additional observations from a re-analysis of the deposited data

How the results depend on the processing

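GAD2 was the only member past 2-fold in 11 of 12 alternatives, which ran over pseudocounts of 0.1, 0.5 and 5, filters, a 4-fold threshold and 5 scalings. With a 1.5-fold threshold the number was 3. Its log2 ratio ran from 2.19 to 2.51, that of GAD1 from -0.96 to -0.85, that of GABA-TP3 from -0.98 to -0.79, that of GAD3 from -0.20 to -0.076 and that of SSADH from -0.25 to -0.15. GABA-TP1 turned from 0.06 to -0.029 with equal RPKM sums, a factor of -0.089 on the log2 scale, which is larger than the difference itself. The same scaling took the summed GAD log2 ratio from -0.34 to -0.43 and the summed GABA-TP log2 ratio from -0.094 to -0.18. Leaving the 100 highest genes out of the sums gave -0.15 for GABA-TP. The number of all genes at least 2-fold apart, 2142, was 1009 with a pseudocount of 5, 1414 with a mean RPKM of at least 5, 4982 at 1.5-fold and 435 at 4-fold. The median of the further GABA loci, 0.89 over 2 loci, was 1.76 and 0.24 with pseudocounts of 0.1 and 5, and 0.34 with no filter on low values. It was -0.42 with a mean RPKM of at least 5, where 1 locus remained. The median of the glutamate loci, -0.044, was 0.28 with no filter, which adds 3 loci under 1 RPKM. No paired analysis was possible because there is 1 library of each genotype, and no replicate could be left out. Depth limits GAD3 and GABA-TP2.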

Other observations

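Glutamate, from which GABA is made, is formed by glutamate synthases, and glutamate dehydrogenase can form or break it down. Glutamine synthetases use glutamate to make the glutamine from which glutamate synthases form it again. A list of 7 loci was entered for these enzymes from published tomato locus assignments, which were not checked against a table. Of these, 4 had a mean RPKM of at least 1, with 0 at least 2-fold higher and 1 at least 2-fold lower, and the median log2 ratio was -0.044. Over all genes tested, 8.09% were higher and 4.3% were lower by 2-fold. With 4 loci these counts set nothing about the list apart from other genes. The abundant glutamine synthetase locus was at 1021 RPKM in wild type fruit and 1273 RPKM in overexpression fruit, a ratio of 1.25 whose counting interval was 1.21 to 1.29. It stood above every GABA gene in both libraries. The locus entered for the ferredoxin-dependent glutamate synthase, an enzyme of the plastid, was at 32.2 RPKM in wild type fruit and 13.8 RPKM in overexpression fruit. It was 2.33-fold lower, with an interval of 2.19 to 2.48. The locus of the NADH-dependent form was at 19.0 and 14.5 RPKM, 1.31-fold lower with an interval of 1.20 to 1.42. The glutamate dehydrogenase locus was at 10.9 and 13.5 RPKM, and the interval of its ratio, 0.922 to 1.65, spanned 1.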
